A study of Mus musculus with 6 samples.

Results

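The Hox genes are a family of homeodomain transcription factors that lie in 4 genomic clusters in the mouse, Hoxa on chromosome 6, Hoxb on chromosome 11, Hoxc on chromosome 15 and Hoxd on chromosome 2. The members were the 38 Hox genes of a fixed list, chosen by name and not by any measured value. All 38 were matched among the 41388 gene identifiers measured. The Hoxa and Hoxb clusters contributed 10 members each, and the Hoxc and Hoxd clusters 9 each. RNA came from cells of the dorsal root ganglia (DRG), the sensory ganglia beside the spinal cord.

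Genes at the same position in different clusters are called paralogues and share a number. Along each cluster, genes of low number are expressed from the hindbrain backwards, and genes of high number begin further towards the tail, so the highest number expressed in a cell reports roughly where along the body axis that cell lies. In the mouse, paralogues 6 to 9 pattern the thorax, the Hox10 genes the lumbar region, the Hox11 genes the sacral region and the Hox13 genes the tail and the ends of the limbs. HOX proteins bind DNA together with cofactors of the PBX, MEIS and PKNOX families. Sensory and motor neurons keep expressing Hox genes after the body axis has formed, and in motor neurons these genes set columnar and pool identity.

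The ganglia were taken at spinal levels T11 to S1, from the lower thorax to the first sacral level. The embryos were of the C57BL/6 strain and 18.5 days old, counted from coitum (dpc). Cells positive for a Ret-EGFP reporter, meant to mark cells expressing the receptor tyrosine kinase Ret, were sorted by flow cytometry with the dye 7-AAD to leave out dead cells. All 6 libraries carried the reporter. Its genotype label reads Tg(Ret-EGFP)SJ, a transgene, whereas the series description speaks of heterozygous embryos with EGFP placed in the Ret locus. There were 3 female libraries (A, B and C) and 3 male libraries (A, C and D), and sex is the only group given. Female A and male A pooled 60 ganglia of 3 embryos each, male C and male D 40 ganglia of 2 embryos each, and female B and female C 20 ganglia of 1 embryo each. The embryos of female A, and likewise those of male C, came from 2 mothers. Each pool mixes the segments from T11 to S1, so a Hox level is an average over ganglia that may differ in their Hox genes. In such bulk samples, fewer cells expressing a gene and less RNA per cell cannot be told apart.

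Total counts ranged from 17861500 to 29330101 per library. Sensory neuron markers summed to 12632 to 17307 CPM (counts scaled to a common library size) in every library, and Ret averaged 181 ± 27.2 CPM (SD, n = 6). Male A stood apart, with summed fibroblast markers at 2873 CPM against 574 to 675 CPM in the other libraries, and summed glial markers at 2505 CPM against 1049 to 1180 CPM. Of the 6 spinal motor neuron markers, Mnx1 and Lhx3 had 0 counts in all libraries, Chat had 3 counts and Slc18a3 had 17. The list summed to 75.9 to 128 CPM per library, most of it from Isl2 (89.7 ± 18.4 CPM), which sensory neurons also make, and from Slc5a7 (14.3 ± 4.86 CPM), and a part of motor neurons in the Hox levels was not tested. Xist, transcribed from the inactive X chromosome, was at 197, 111 and 131 CPM in female A, B and C, against 0.418, 58.9 and 0.575 CPM in male A, C and D. The library labelled male C therefore went against its label in part, although it also held Y-linked transcripts (Kdm5d at 9.71 CPM). The edgeR fit of the Hox genes to sex is given with and without it. The class shares are also given with each library left out, and other comparisons of the sexes include it.

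Levels of different genes were compared per kilobase of exon as RPKM (counts scaled by library size and exon length), and levels of 1 gene across libraries as CPM, both scaled with TMM factors, which correct for differences in library composition. A gene was called present at 1 CPM or more in all 6 libraries. By that rule 17 of the 38 Hox genes were present. They were Hoxa5, Hoxa7, Hoxa9 and Hoxa10 of the Hoxa cluster, Hoxb4, Hoxb5, Hoxb7 and Hoxb9 of the Hoxb cluster, Hoxc4, Hoxc8, Hoxc9 and Hoxc10 of the Hoxc cluster, and Hoxd1, Hoxd8, Hoxd9, Hoxd10 and Hoxd11 of the Hoxd cluster. Of the other 21, 15 had more than 3 counts over the 6 libraries together, and 6 had 3 counts or fewer, which was taken as the limit of detection. These 6 were Hoxa11 with 3 counts, Hoxb1 with 3, Hoxd12 with 2, Hoxb13 with 1, and Hoxa13 and Hoxd13 with 0. In a single library, the limit that a count of 0 allows (3 counts) corresponded to 0.0949 to 0.166 CPM.

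**Figure D1:**
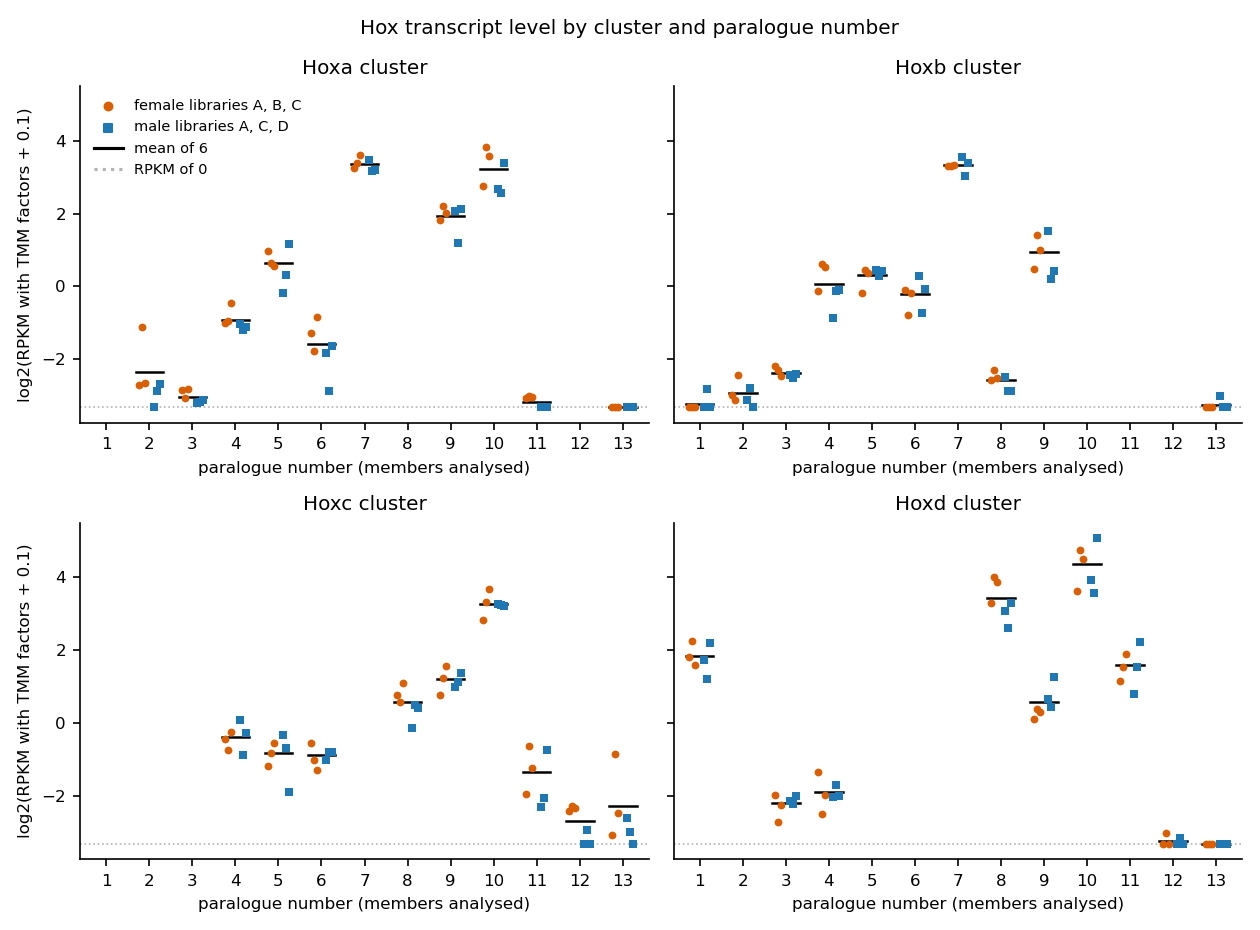
Level of every Hox gene analysed, by cluster and paralogue number. Each point is 1 library, as log2 of RPKM with TMM factors plus a pseudocount of 0.1. Circles are female A, B and C and squares are male A, C and D. The bar is the mean of 6, and the dotted line marks an RPKM of 0. The high levels lie at paralogues 7 and 10 and, among the Hox8 genes, at Hoxd8. Paralogues 12 and 13 lie near the line, apart from Hoxc13 in female B (0.450 RPKM).

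Hox transcripts came mainly from 6 genes. Hoxd10, a gene of lumbar identity, had the highest mean level, 20.5 ± 8.89 RPKM (SD, n = 6 here and for the levels that follow). It was followed by Hoxd8 at 10.8 ± 3.83 RPKM, by Hoxa7 at 10.2 ± 1.27 RPKM and by Hoxb7 at 9.97 ± 1.16 RPKM. Hoxc10 was at 9.64 ± 1.85 RPKM and Hoxa10 at 9.23 ± 3.42 RPKM. Hoxd10 exceeded Hoxd8 in RPKM in 6 of 6 libraries, while the 5 genes after Hoxd10 in this order differed from their neighbours by less than their spread over libraries. Together the 6 held 74.1% of the summed mean Hox level. Set against all 14958 genes tested for sex, which had a median level of 4.07 RPKM, Hoxd10 lay above 81.8% and Hoxa10 above 67.5%.

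Hoxd10 was at 22.4, 48.7 and 40.9 CPM in female A, B and C, and at 27.5, 21.6 and 61.7 CPM in male A, C and D. Male D, female B and female C were high and the other 3 libraries low, so that the sexes overlapped. Hoxa10, its Hoxa paralogue, was at 22.0, 46.0 and 39.1 CPM in female A, B and C, and at 20.7, 19.0 and 34.2 CPM in male A, C and D, with the same 3 libraries on the high side. Hoxc10, which with Hoxd10 gives lumbar motor neurons of the mouse their identity, was at 13.4, 18.9 and 24.4 CPM in female A, B and C, and at 18.3, 17.9 and 17.5 CPM in male A, C and D. The 3 Hoxc10 values of the males lay within the range of the females.

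Hoxd8 was at 26.5, 44.0 and 40.3 CPM in female A, B and C, and at 23.1, 16.6 and 26.7 CPM in male A, C and D. Female B and female C lay above the other 4 libraries, while female A and male D were nearly equal. Hoxa7, a gene of thoracic patterning, was at 35.9, 39.6 and 45.8 CPM in female A, B and C, and at 41.5, 33.3 and 34.3 CPM in male A, C and D. Hoxb7, its paralogue in the Hoxb cluster, was at 15.2, 15.0 and 15.6 CPM in female A, B and C, and at 18.0, 12.5 and 16.1 CPM in male A, C and D. Both Hox7 genes varied little between libraries, and the sexes overlapped in each.

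**Figure D2:**
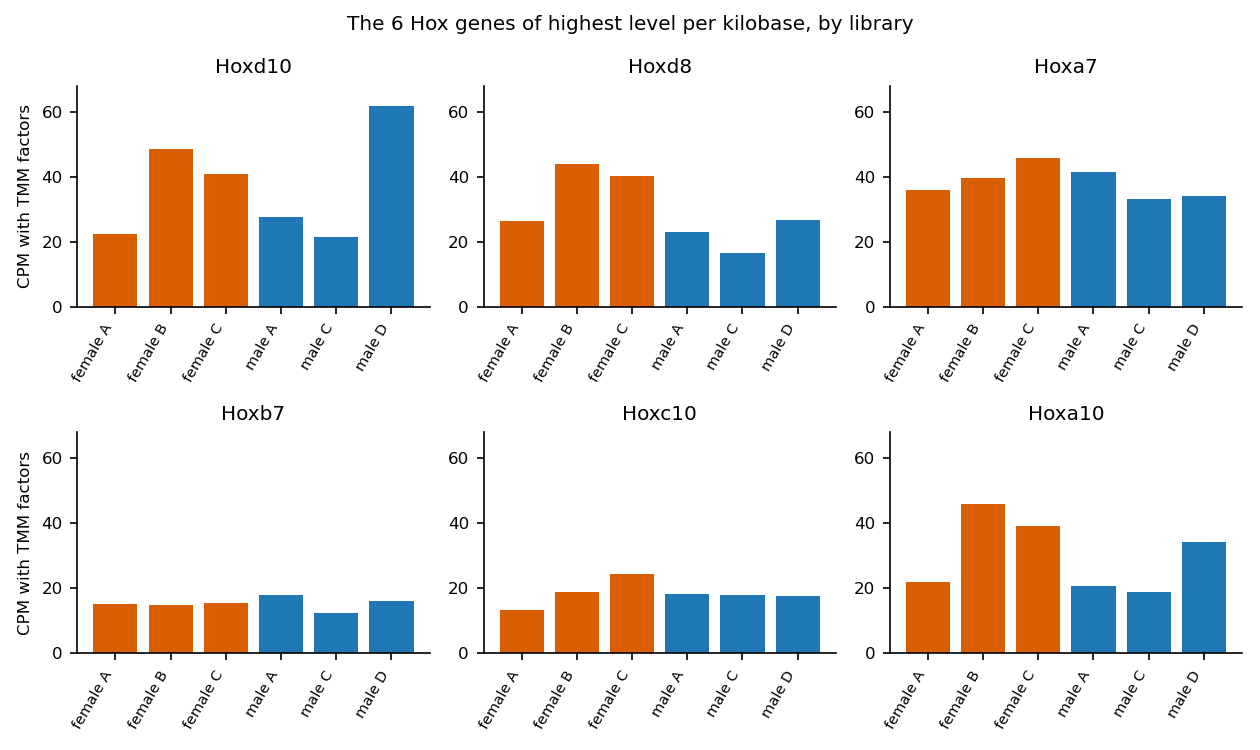
Level of the 6 Hox genes of highest mean RPKM in each library, in CPM with TMM factors (bars, 1 library each; female A, B and C on the left, male A, C and D on the right, all axes from 0 on a linear scale). Hoxd10 ranges from 21.6 to 61.7 CPM, whereas Hoxb7 stays between 12.5 and 18.0 CPM.

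A middle group followed these genes. Hoxa9 was at 3.75 ± 0.848 RPKM and was the highest of the 4 Hox9 genes, all of which were present. Hoxc9, which sets thoracic motor neuron identity in the mouse, was at 2.20 ± 0.440 RPKM, Hoxb9 at 1.81 ± 0.734 RPKM and Hoxd9 at 1.40 ± 0.479 RPKM. Hoxd11, the only Hox11 gene present, was at 2.93 ± 1.05 RPKM. Hoxd1 was the only member analysed with a number below 4 that was present. It is known in the mouse for a role in the development of pain-sensing neurons, and its level was 3.49 ± 0.938 RPKM. The remaining present genes were Hoxa5 at 1.47 ± 0.491, Hoxc8 at 1.40 ± 0.411, Hoxb5 at 1.15 ± 0.187, Hoxb4 at 0.948 ± 0.369 and Hoxc4 at 0.667 ± 0.186 RPKM. Hoxb6 had a higher mean level than Hoxc4, at 0.763 ± 0.241 RPKM, but missed the rule in female B (0.940 CPM) and in the library labelled male C (0.981 CPM).

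Hoxd1 was at 6.30, 8.69 and 5.46 CPM in female A, B and C, and at 6.01, 4.15 and 8.39 CPM in male A, C and D. It was thus counted in every library, at 825 counts in all, with overlap between the sexes. Its neighbour in the analysed part of the cluster, Hoxd3, had 65 counts. The level of Hoxd1 per kilobase was 28.6 times that of Hoxd3 (95% exact binomial interval 22.2 to 37.4). Like the intervals below, this one treats each read as independent and leaves out the spread between libraries. In single libraries the ratio ran from 19.7 to 88.3. Much of Hoxd3 overlaps other genes, and over the exon length free of overlap the ratio was 10.6 (interval 8.24 to 13.9). Hoxb1, the Hoxb paralogue of Hoxd1 and a gene of the hindbrain, had 3 counts, all in the library labelled male C. Hoxd1 made up 99.8% of the level of these 2 Hox1 genes.

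The clusters differed in level. The Hoxd members summed to 39.3 ± 13.1 RPKM, the Hoxa members to 25.4 ± 5.15 RPKM, the Hoxc members to 15.3 ± 2.57 RPKM and the Hoxb members to 14.8 ± 1.94 RPKM. Hoxd took 40.6 ± 5.70% of the summed Hox level and was the highest cluster in each of the 6 libraries, with shares of 37.5%, 44.9% and 40.6% in female A, B and C, and of 35.5%, 35.5% and 49.7% in male A, C and D. Hoxa took 26.9 ± 1.71%, Hoxc 16.4 ± 2.78% and Hoxb 16.1 ± 2.93%. The order of Hoxc and Hoxb was within their spread. Hoxd10 and Hoxd8 made most of the Hoxd level, Hoxa7 and Hoxa10 most of the Hoxa level, Hoxb7 most of the Hoxb level, and Hoxc10 most of the Hoxc level.

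Grouped by paralogue number, the level was concentrated at 10, 7 and 8. The 3 Hox10 genes held 40.7 ± 5.24% of the summed Hox level, the 2 Hox7 genes 21.9 ± 4.04% and the 3 Hox8 genes 12.8 ± 2.50%. Hoxd10 supplied 52.0% of the Hox10 level, Hoxa7 50.6% of the Hox7 level and Hoxd8 88.0% of the Hox8 level. The 4 Hox9 genes held 9.73 ± 1.16%. The Hox11 genes held 3.39 ± 0.927%, of which Hoxd11 supplied 90.5%, and the Hox6 genes, which pattern the anterior thorax, held 1.57 ± 0.475%. Paralogues 4 and 5 held 2.37 ± 0.351% and 3.33 ± 0.523%, led by Hoxb4 and Hoxa5. Hox2 and Hox3, genes of the hindbrain and neck, held 0.125 ± 0.108% and 0.256 ± 0.0841%, led by Hoxa2 and Hoxd3. Hox12 and Hox13 held 0.0628 ± 0.0522% and 0.105 ± 0.145%, led by Hoxc12 and Hoxc13.

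The posterior limit, taken as the highest paralogue number present, was 10 for Hoxa, 9 for Hoxb, 10 for Hoxc and 11 for Hoxd. The step behind the last present gene was steep in 3 clusters. Hoxa10 had 3808 counts and Hoxa11, the next gene of its cluster, had 3, a ratio per kilobase of 888 (95% exact binomial interval 304 to 4307). Hoxd11 had 1622 counts and Hoxd12 had 2, a ratio of 488 (interval 135 to 4032). Hoxb9 had 581 counts and Hoxb13, the next analysed gene of its cluster and one known to limit growth of the mouse tail, had 1, a ratio of 498 (interval 89.0 to 19701). Over the exon length free of overlap, which is 65.0% of that of Hoxa11, the ratio of Hoxa10 to Hoxa11 was 577 (interval 197 to 2800). In all 3 pairs the anterior gene was the higher in 6 of 6 libraries.

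The step was shallower in the Hoxc cluster. Hoxc10 had 2404 counts and Hoxc11 had 74, a ratio of 34.4 (interval 27.3 to 44.0), again with Hoxc10 the higher in 6 of 6 libraries. Single libraries went beyond that interval, with ratios from 18.1 to 92.9. Hoxc11 was at 0.319, 1.11 and 0.651 CPM in female A, B and C, and at 0.209, 0.285 and 1.01 CPM in male A, C and D. It thus reached 1 CPM in female B and male D only. Hoxc13, known for its role in hair and nails, had 30 counts, of which 20 came from female B. Its level was 0.0456, 1.11 and 0.200 CPM in female A, B and C, and 0.157, 0.0633 and 0 CPM in male A, C and D. Hoxc12 had 7 counts in all.

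Hoxa10 and Hoxa11 gave the largest of these ratios, with an interval that overlaps those of Hoxd11 and Hoxb9, and the stretches around their annotated starts are shown to place the step in the genome. Each runs from 250 bases before the start to 50 bases after it, from RefSeq on GRCm38.p6, minus strand, at chr6:52240805-52241104 for Hoxa10 and at chr6:52245761-52246060 for Hoxa11. Capitals mark each CG.
Hoxa10: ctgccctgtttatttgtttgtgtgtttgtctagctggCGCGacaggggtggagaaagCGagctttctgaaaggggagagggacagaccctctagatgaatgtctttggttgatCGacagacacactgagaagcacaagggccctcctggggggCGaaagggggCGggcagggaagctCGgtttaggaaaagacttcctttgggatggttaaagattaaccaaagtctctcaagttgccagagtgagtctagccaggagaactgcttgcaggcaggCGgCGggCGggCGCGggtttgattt
Hoxa11: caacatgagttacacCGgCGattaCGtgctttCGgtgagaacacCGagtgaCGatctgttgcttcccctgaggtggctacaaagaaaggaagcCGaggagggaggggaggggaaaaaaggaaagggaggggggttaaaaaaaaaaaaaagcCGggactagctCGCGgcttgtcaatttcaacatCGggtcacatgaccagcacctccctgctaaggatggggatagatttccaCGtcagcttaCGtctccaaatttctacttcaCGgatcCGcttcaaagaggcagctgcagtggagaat

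The Hoxa10 stretch held 12 CG pairs and the Hoxa11 stretch 15. Hoxa10 has another annotated start in the table, with a stretch at chr6:52234890-52235189 that held 21 CG pairs, and the one printed is at the start of the gene in the files' annotation. A stretch of this kind was available for 22 of the 38 members, 11 present and 11 not, in 24 entries with 4 to 45 CG pairs. The median was 14 over the 13 entries of present members and 15 over the 11 entries of the others, against 7 over all 32851 entries. The letters TGATNNAT, a form of the joint PBX and HOX binding site, were searched on both strands. They occurred in 4 of the 24 Hox entries (16.7%), those of Hoxd11, Hoxa2, Hoxb8 and Hoxb1, against 8.85% of all entries of this length. Neither stretch printed above held them.

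Inside the clusters, some genes were low between higher neighbours. The clearest case was Hoxb8, chosen after its values were seen. The gene lies at chr11:96281905-96285315 on the plus strand of GRCm38, between Hoxb9 and Hoxb7. It was at 0.183, 0.277 and 0.200 CPM in female A, B and C, and at 0.209, 0.0949 and 0.0958 CPM in male A, C and D, with 22 counts in all. Its libraries were all low, whereas Hoxb7 was at least at 12.5 CPM in each. Per kilobase, Hoxb7 was 154 times as high as Hoxb8 (95% exact binomial interval 102 to 247) and Hoxb9 was 27.0 times as high (interval 17.7 to 43.5). Hoxa6, likewise chosen after its values were seen, had 25 counts against 4978 for Hoxa7, a ratio of 46.3 (interval 31.3 to 71.6). Hoxb7 exceeded Hoxb6 by a ratio of 13.2 (interval 11.4 to 15.4), and Hoxd10 exceeded Hoxd9 by 14.2 (interval 12.8 to 15.8). Each of these ratios was above 1 in 6 of 6 libraries. Single libraries went beyond the intervals, from 9.56 to 22.0 for Hoxd10 to Hoxd9 and from 26.6 to 244 for Hoxa7 to Hoxa6.

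The Hox clusters also contain genes of microRNAs, short RNAs that pair with messenger RNAs through a seed at bases 2 to 8 and lower their stability or translation. They belong to 3 seed families, and miR-196 is known in the mouse to direct cleavage of the Hoxb8 messenger RNA. Their mature sequences, from RefSeq on GRCm38.p6, are shown with the seed in capitals because members of a family share it.
mmu-miR-10a-5p: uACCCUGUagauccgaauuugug
mmu-miR-10b-5p: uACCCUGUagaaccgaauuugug
mmu-miR-196a-5p: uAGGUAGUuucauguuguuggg
mmu-miR-196b-5p: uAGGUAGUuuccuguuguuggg
mmu-miR-615-3p: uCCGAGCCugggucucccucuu
The miR-10a sequence lies at chr11:96317186-96317208, between Hoxb5 and Hoxb4, and the miR-10b sequence at chr2:74726074-74726096, inside Hoxd4. The miR-196a sequence is encoded at chr11:96265187-96265208, on the far side of Hoxb9 from Hoxb8, and at chr15:102973365-102973386, between Hoxc10 and Hoxc9. The miR-196b sequence lies on the minus strand at chr6:52230129-52230150, inside Hoxa9, and the miR-615 sequence at chr15:103014969-103014990, inside Hoxc5.

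The Hoxb8 transcript holds a stretch that pairs with miR-196a along its whole length, on GRCm38 at chr11:96284888-96284909, plus strand, behind the stop codon. It is shown with the bases opposite the seed in capitals.
Hoxb8 site: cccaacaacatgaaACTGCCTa
Of its 22 bases, 21 form Watson-Crick pairs and 1 forms a G:U pair, against 14 pairs in the next best stretch of the transcript. The G:U pair lies opposite the seed. The letters ACTACCT, which pair with the whole miR-196 seed, occurred on the transcript strand in 10 of the 38 Hox genes (26.3%), against 16.0% of 21877 genes. They were found in Hoxa4, Hoxa5, Hoxa6, Hoxa7, Hoxa9, Hoxb1, Hoxb6, Hoxb7, Hoxb8 and Hoxc8, 5 of which were present. The search covered the whole of the longest coding transcript of each gene, and in Hoxb8 the letters lie outside the site shown. The letters ACAGGGT, which pair with the miR-10 seed, occurred in 6 Hox genes (15.8%), against 18.9% of all. Mature microRNAs were not measured in these libraries, and a relation between these letters and the levels was not tested.

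The present Hox genes differed in how much they varied between libraries. Their coefficient of variation (SD over mean of the CPM in 6 libraries) had a median of 29.4%, against 25.3% over all 14958 genes tested for sex. Of the 17, 6 lay below that overall median. Over the 13494 tested genes with a mean of 1 CPM or more, which is closer to the rule for presence, the median was 23.7%. Hoxb7 varied least, at 11.7%, followed by Hoxa7 at 12.5% and Hoxb5 at 16.3%. Hoxd10 varied most, at 43.5%, followed by Hoxb9 at 40.5% and Hoxb4 at 38.9%. Hoxb9 was at 3.33, 6.64 and 4.90 CPM in female A, B and C, and at 7.16, 2.72 and 3.21 CPM in male A, C and D. Its highest library was male A, the one with high summed fibroblast and glial markers. Hoxb4 was at 2.10, 3.65 and 3.45 CPM in female A, B and C, and at 1.15, 2.09 and 2.16 CPM in male A, C and D, and was lowest in male A.

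The order of the libraries was not the same for all members. Of the 17 present genes, 9 had their lowest value in the library labelled male C, 4 in male A and 4 in female A. The highest value was in female B for 5 genes, and in female C, male A and male D for 4 genes each. In male A the lowest values were those of Hoxa5, Hoxb4, Hoxc8 and Hoxd11, and the highest those of Hoxb5, Hoxb7, Hoxb9 and Hoxc4. Fibroblasts and glia of a body level also express Hox genes, and their part in these values was not tested. Without male A the median coefficient of variation of the present genes was 25.3%.

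**Figure D3:**
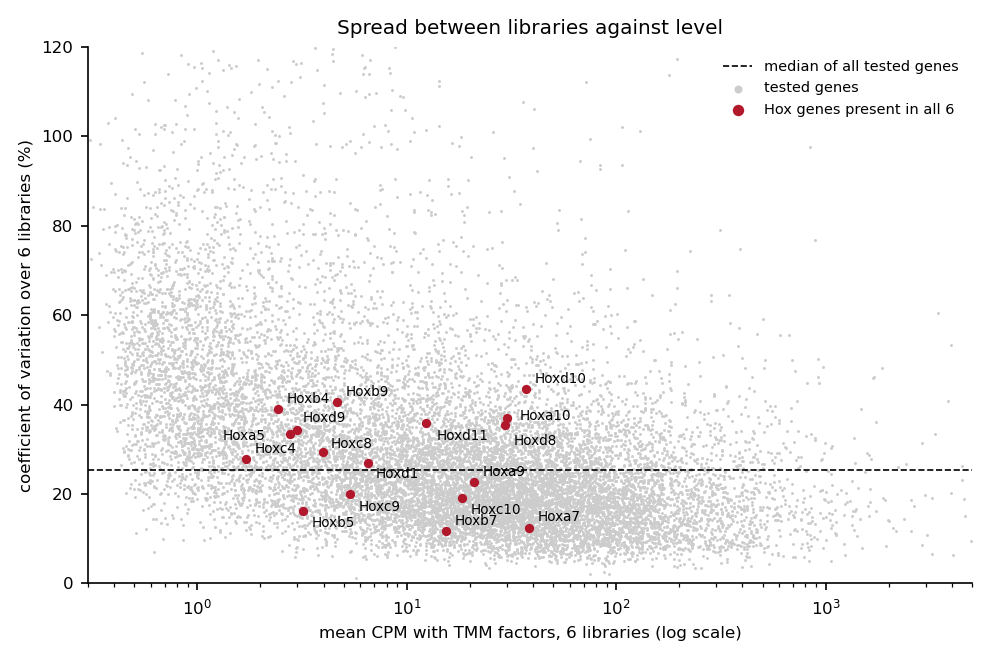
Coefficient of variation over 6 libraries against mean CPM with TMM factors (log scale) for the 17 Hox genes present (labelled points) and for all genes tested for sex (grey). The dashed line is the overall median, 25.3%; 117 grey points above 120% lie outside the axis, and Hoxb7, Hoxa7 and Hoxb5 are the lowest of the labelled points.

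Sex was compared with edgeR's quasi-likelihood F-test across all genes, as female minus male with 3 libraries each. Of the 38 Hox genes, 23 passed the filter on low counts, and 0 were called at an adjusted p under 0.05, against 4 genes, or 0.0267%, of the 14958 tested. At an unadjusted p under 0.05 there was 1 Hox gene of 23, against a background of 4.42%. DESeq2 and limma voom likewise called 0 Hox genes, each with 1 at an unadjusted p under 0.05. Of the 23, 15 had a positive log2 change and 8 a negative one, against 49.5% positive over all genes. The median log2 change was 0.08 for the Hox genes and 0.00 over all genes. With plain library totals in place of TMM factors, the all-gene median moved to -0.12, the Hox median to -0.05, and 11 of the 23 were positive.

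The Hox gene with the smallest p was Hoxd8. Its mean was 36.9 ± 9.23 CPM in female libraries, against 22.1 ± 5.09 CPM in male ones (SD, n = 3 each). The log2 change of 0.74, with a standard error of 0.27, did not pass the threshold in edgeR (adjusted p = 0.961). Its sexes overlapped, since female A (26.5 CPM) lay below male D (26.7 CPM). Among the 23 tested Hox genes, the values of 3 others did not overlap between the sexes, against 8.06% of all genes tested. Of these, 2 were higher in females (background 4.18%) and 1 was lower (background 3.88%), and none passed the threshold. Hoxa3, Hoxa11 and Hoxc12, with 17, 3 and 7 counts, did not pass the filter and are left out here. They too were higher in each female library than in any male one. Hoxc8, a gene of brachial motor neuron pools in the mouse, was at 4.52, 3.93 and 5.81 CPM in female A, B and C, and at 2.30, 3.70 and 3.50 CPM in male A, C and D (log2 change 0.58, standard error 0.33, edgeR adjusted p = 0.961). Hoxa4, which patterns the neck, was at 0.639, 0.664 and 1.00 CPM in female A, B and C, and at 0.627, 0.538 and 0.575 CPM in male A, C and D (log2 change 0.41, standard error 0.47). Hoxd9 ran the other way, at 2.10, 2.60 and 2.40 CPM in female A, B and C, and at 3.19, 2.66 and 4.94 CPM in male A, C and D (log2 change -0.60, standard error 0.36). Without male D the change of Hoxd9 was -0.30, and without female C that of Hoxa4 was 0.17.

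Without the library labelled male C, 0 Hox genes were called by edgeR and 0 of 23 had an unadjusted p under 0.05, while 787 of 15291 genes did. The log2 change of Hoxd8 was then 0.57, and the median over the Hox genes was -0.01, with 11 of 23 positive. The log2 changes of Hoxc8, Hoxa4 and Hoxd9 without that library were 0.71, 0.35 and -0.78.

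**Figure D4:**
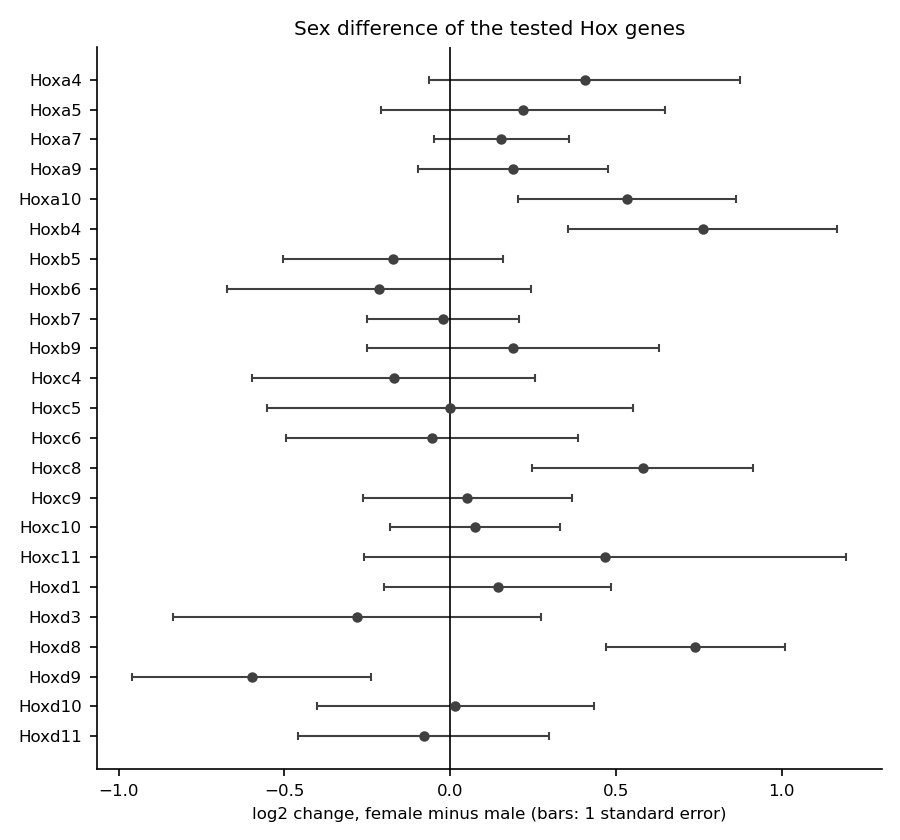
Log2 change, female minus male, of the 23 Hox genes that passed the filter on low counts, from edgeR across all genes (points, estimate; bars, 1 standard error; 3 libraries of each sex). The changes run from -0.60 for Hoxd9 to 0.76 for Hoxb4, and none passed an adjusted p under 0.05.

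The summed Hox level was 77.2, 115 and 111 RPKM in female A, B and C, and 85.0, 69.2 and 112 RPKM in male A, C and D. Its mean was 101 ± 20.8 RPKM in female libraries, against 88.6 ± 21.4 RPKM in male ones (SD, n = 3 each), a difference within the spread of either sex. The shares of 6 paralogue classes were compared by an exact two-sided permutation test, whose smallest possible p with 3 libraries against 3 is 0.1. Hox10 and Hox11 together took 43.3 ± 5.67% in females and 44.9 ± 7.12% in males (exact p = 0.9, adjusted over the 6 classes 0.9). Hox6 to Hox8 took 37.5 ± 4.21% in females and 35.0 ± 5.63% in males (exact p = 0.7, adjusted 0.9). Hox9 took 9.19 ± 0.304% in females and 10.3 ± 1.55% in males (exact p = 0.2, adjusted 0.6). The Hox9 difference of -1.07 percentage points was -0.181 without male A. Hox12 and Hox13 together took 0.267 ± 0.204% in females and 0.0675 ± 0.0584% in males (exact p = 0.1, adjusted 0.6), with most of the female value in female B. The difference of 0.200 percentage points was 0.0821 without female B. Hox4 and Hox5 took 5.66 ± 0.919% in females and 5.74 ± 0.812% in males, and Hox1 to Hox3 took 4.13 ± 1.02% in females and 4.02 ± 0.319% in males. No class could reach 0.05 in this design.

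**Figure D5:**
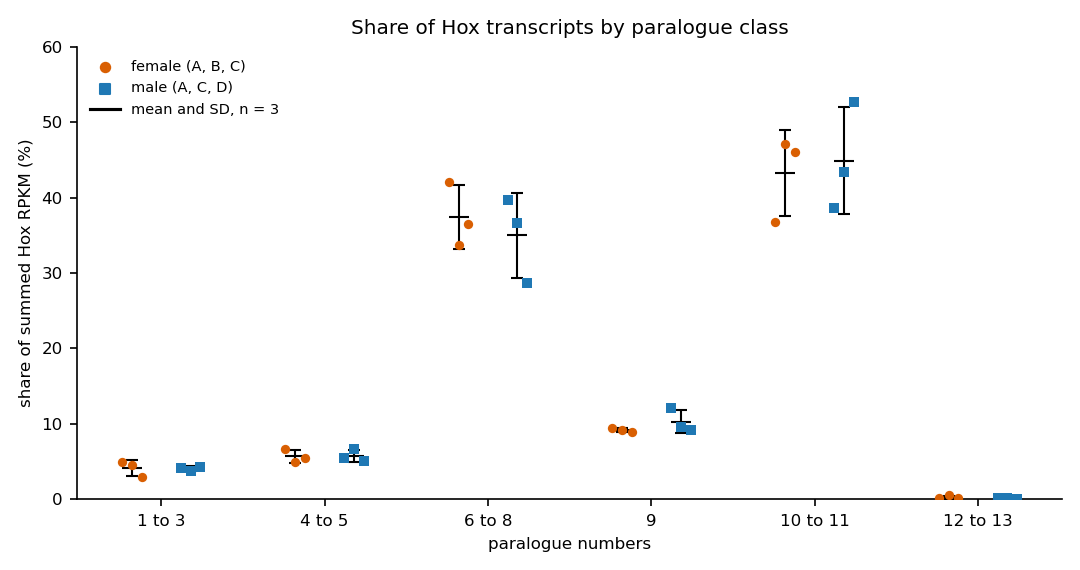
Share of the summed Hox RPKM taken by each class of paralogue numbers (points, libraries, with female circles left of male squares in each class; bars, mean and SD, n = 3). Paralogues 10 to 11 and 6 to 8 take the most in every library, and the sexes overlap in both.

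The smaller group of Hox8 genes was examined after its values were seen and is given without a test. It took 14.7%, 15.2% and 15.1% of the Hox level in female A, B and C, and 10.9%, 10.7% and 9.86% in male A, C and D. These shares did not overlap, and Hoxd8, described above, supplied most of them. A share also depends on the summed Hox level. Hoxd8 itself was nearly equal in female A and male D, at 9.66 and 9.73 RPKM, whereas their summed Hox levels were 77.2 and 112 RPKM. Female B and male D, in turn, had summed levels of 115 and 112 RPKM, with Hoxd8 at 16.0 and 9.73 RPKM. What set the shares apart was not tested. The Hox12 shares, which rest on few counts, did not overlap between the sexes either.

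Female B and female C carry sample records of another form than the other 4 libraries and held 1 embryo each. These 2 libraries were compared with the other 4 in an edgeR fit with a sex term, which in effect sets female B and female C against female A. Of the Hox genes, 24 passed the filter. None was called at an adjusted p under 0.05 (0 of 24), with 0 at an unadjusted p under 0.05, against 0 and 508 (3.27%) of 15536 genes tested. DESeq2 and limma voom called 0 Hox genes, with 1 and 0 at an unadjusted p under 0.05. A positive log2 change was found for 18 of the 24, against 50.2% of all genes, and the median was 0.34, against 0.00. For 6 of the 24, female B and female C did not overlap with the other 4 libraries, against 21.6% of all genes tested.

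Hoxa10 had the smallest unadjusted p of the tested Hox genes in that edgeR fit, and its change lay above their median of 0.34. Female B and female C averaged 42.6 ± 4.91 CPM (SD, n = 2) and the other 4 libraries 24.0 ± 6.91 CPM (SD, n = 4). The fit in effect set female B and female C against female A (22.0 CPM). It gave a log2 change of 0.95 with a standard error of 0.43. That change did not pass the threshold (edgeR adjusted p = 1.00). Hoxd8 averaged 42.2 ± 2.65 CPM in female B and female C and 23.2 ± 4.70 CPM in the other 4. Against female A (26.5 CPM) the fit gave a log2 change of 0.67 with a standard error of 0.37. With the record form as a term in the sex fit, the log2 change of Hoxd8 between the sexes was 0.26, and among the 4 libraries of the other record form it was also 0.26. Both are below the 0.74 of all 6 libraries. Record form and the number of embryos per pool, which differ together in female B and female C, cannot be told apart.

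Reads of overlapping genes limit some of these levels, and the sources used here do not give the strand setting of the counting. Of the 38 members, 15 share exon bases with another gene. Hoxa7 shares 586 bases with Hoxaas3 on the other strand, Hoxc10 and Hoxc5 share 166 bases, and Hoxa11 shares 800 bases with Hoxa11os. Less than 50% of the exon length was free of overlap in Hoxb3 (47.1%), Hoxd3 (37.2%) and Hoxd4 (47.7%). If reads were counted only where genes do not overlap, dividing by that free length would make their levels 2.12, 2.69 and 2.10 times as high, and none of these 3 was present.

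Genes of HOX protein cofactors were also measured. Per kilobase, Pknox2 had the highest mean of the 9 TALE homeodomain genes, 28.2 ± 3.10 RPKM (SD, n = 6). Meis1 was at 8.51 ± 1.49 RPKM and Pknox1 at 4.87 ± 0.740 RPKM. Between the sexes, 0 of 9 passed the edgeR threshold and 0 had an unadjusted p under 0.05, with 6 positive and 3 negative changes.

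Genes that act on Hox clusters from outside gave a mixed picture. The caudal genes Cdx1, Cdx2 and Cdx4, which activate posterior Hox genes in the early embryo, had 0 counts in all 6 libraries. Gdf11, a secreted signal that sets the position of posterior Hox expression in the mouse trunk, was at 101, 123 and 140 CPM in female A, B and C, and at 58.0, 85.8 and 101 CPM in male A, C and D. Its sexes did not overlap, as for 8.06% of all genes tested (4.18% higher in females), but female A (101.3 CPM) lay barely above male D (100.9 CPM). Female B and female C also lay above all other libraries. Between the record forms, 21.6% of all genes tested did not overlap. The log2 change of 0.57 (standard error 0.25) did not pass the threshold in edgeR (adjusted p = 0.961). Per kilobase, Gdf11 was the highest of this list, at 25.0 ± 7.00 RPKM, and was followed by Egr2, a hindbrain regulator also used by myelinating Schwann cells, at 5.50 ± 4.53 RPKM, and by the retinoic acid receptors Rarb at 1.88 ± 0.418 RPKM and Rarg at 1.03 ± 0.514 RPKM. Egr2 was highest in male A, at 48.2 CPM, against 7.31 to 21.6 CPM in the other libraries. Of the list of 11, 5 were tested for sex, with 0 past the threshold. In edgeR 1 of them, Gdf11, had an unadjusted p under 0.05, against 4.42% of all genes tested.

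Polycomb proteins keep silent Hox genes repressed and trithorax proteins keep active ones expressed. All 19 genes of this list were tested for sex in edgeR, with 0 past the threshold. Of these, 1 had an unadjusted p under 0.05 (background 4.42%), and 11 changes were positive and 8 negative. The 4 with the highest mean CPM were the H2A ubiquitin ligase Rnf2, the H3K27 methyltransferase Ezh1, the H3K27 demethylase Kdm6b and the PRC2 partner Jarid2. Per kilobase, Rnf2 was at 23.6 ± 4.46 RPKM, Ezh1 at 10.5 ± 1.08 RPKM, Kdm6b at 7.46 ± 6.01 RPKM and Jarid2 at 5.09 ± 0.937 RPKM. On that scale Men1, a partner of trithorax methyltransferases, at 9.17 ± 3.13 RPKM, lay above Kdm6b and Jarid2, and the PRC2 subunit Eed and the insulator protein gene Ctcf, at 7.34 ± 1.16 and 7.05 ± 0.639 RPKM, lay above Jarid2. Ezh2, the paralogue of Ezh1 used by dividing cells, was at 0.883 ± 0.256 RPKM. Kdm6b was at 31.3, 79.5 and 124 CPM in female A, B and C, and at 35.8, 13.3 and 27.5 CPM in male A, C and D. Female B and female C were high and the sexes overlapped (log2 change 1.62, standard error 0.50, edgeR adjusted p = 0.961).

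Non-coding RNAs of the clusters were mostly low. The list had 18 names, of which 17 were matched in the files, and 6 of these had 0 counts. Per kilobase, the highest of those above 3 counts were Haglr at 1.92 ± 0.291 RPKM and Hoxd3os1 at 1.69 ± 0.381 RPKM, both in the Hoxd cluster, which differed by less than their spread. Hotair was at 0.661 ± 0.361 RPKM, Hoxb5os at 0.537 ± 0.290 RPKM and Hoxaas3 at 0.458 ± 0.131 RPKM. Hotair, named for repression of the Hoxd cluster in human fibroblasts, is an antisense transcript of the Hoxc cluster. Hottip, at the posterior end of the Hoxa cluster beyond Hoxa13, had 0 counts, as did Hoxa13 itself. The genes of the microRNAs shown above had 3 counts in all, those of Mir10b, in libraries not made for short RNAs. Of the list, 4 were tested for sex, with 4 positive changes and 0 past the edgeR threshold.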

How the data were processed

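RNA of 6 pools of sorted DRG cells was measured. Per the labels, each library was made from 10 ng of total RNA by SMARTer ultra low input amplification, without molecular identifiers. The intervals treat each read as independent. Copies made by amplification, and the spread between libraries, are not covered, so the intervals can be too narrow. The submitters' processing notes name Subread, featureCounts 1.4.5 and the build GRCm38.p2, and the sources used here give no strand or multi-mapping settings. The authors deposited a raw count per Ensembl gene, with exon length, in 1 file per library. The deposited CPM and RPKM values were recomputed from the counts within 1e-06 and not used further. Nothing says whether pools came from separate litters, beyond different embryos per library, so p-values measure the spread between these libraries.

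CPM and RPKM in the text use TMM factors (0.922 to 1.08) of edgeR 4.0.16 in R 4.3.3. Tests were edgeR quasi-likelihood F-tests (glmQLFit, glmQLFTest) on all counts after filterByExpr, with Benjamini-Hochberg adjustment over all genes tested, and were tested on simulated data. Female minus male had sex as the only term, and the fit by record form had a sex term. Ratios pool the counts of 6 libraries, with Clopper-Pearson intervals. Alternatives were other normalizations and filters, DESeq2 1.42.0, limma 3.58.1 voom, each library left out, the replicate letter as a block, and record form or pool size as terms. Unshared exon length, and leaving out male A and male C together, were added after the data were seen. Members, lists and tests were chosen with earlier results of these data known. Named were the highest member of each cluster and paralogue group, the last present gene of a cluster and the next, members with an unadjusted p under 0.05 or no overlap, the 3 most and 3 least variable, and the 4 highest of each other list. Some genes of the family and of the lists are not reported here.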

Additional observations from a re-analysis of the deposited data

Results flagged for a closer look

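Of 23 values examined (17 present genes and 6 class shares, each over 6 libraries), 3 had a library far from the others, and chance gives about 1 in 20. Hoxb5 was at 2.19 CPM in female A, the lowest library, against 3.13 to 3.55 CPM in the other 5. Hox9 genes took 12.1% of the Hox level in male A, against 8.87% to 9.51% in the others. Male A also had the highest summed fibroblast markers, 2873 CPM, whose part was not tested. Hox12 and Hox13 genes together took 0.503% of the Hox level in female B, against 0 to 0.160% in the others, with 20 counts of Hoxc13.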

How the results depend on the processing

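No Hox gene was called between the sexes or between the record forms under any alternative fitted, and the 4 named changes between the sexes (Hoxa4, Hoxc8, Hoxd8, Hoxd9) kept their sign in each in which they were tested (Hoxa4 was not tested at 1 CPM or more in 3 libraries). Over all genes, 4 were called for sex, 14 without the low-count filter, 13 with DESeq2, 1 with limma voom, 0 with record form as a term and 0 without female B and female C, and 0 to 5 with each library left out. The replicate letter gave no sign of pairing the libraries (correlation of deviations -0.134 for A and 0.035 for C, against -0.153 to 0.102 for unlike letters). Only letters A and C occur in both sexes, so this check cannot decide it. With the letter as a block, a fit of sex that rests on the libraries of those letters, 77 genes were called, none of them Hox. Between the record forms, 0 genes were called, 3 without the low-count filter, 13 with DESeq2, 3 with no sex term and 136 among females alone; that fit without female A could not be made. Present Hox genes numbered 11 at 1 CPM per kilobase, 21 at 0.5 CPM and 14 at 2 CPM, against 17. The summed Hox level was 263 in TPM, another unit than its 94.9 RPKM. With each library left out, the female minus male share ran, in percentage points, from -0.270 to 0.685 for Hox1 to Hox3 (reversed without female A, female B at -0.0942 or male C at -0.0628), from -0.588 to 0.370 for Hox4 and Hox5 (reversed without female B at 0.307, female C at 0.0402 or male C), from -0.684 (without male D) to 4.76 for Hox6 to Hox8, and from -4.73 to 2.27 for Hox10 and Hox11 (reversed without female A at 1.66 or male D), from -1.59 to -0.181 for Hox9 and from 0.0821 to 0.264 for Hox12 and Hox13. Over exon length free of overlap, an alternative chosen after seeing the data, 2 of 14 neighbour ratios left their interval, Hoxd1 to Hoxd3 (10.6, main 28.6) and Hoxc10 to Hoxc9 (4.80, main 4.38). The counts of each ratio stayed the same and only the exon length changed, to 37.2% in Hoxd3 and 91.3% in Hoxc10. A count of 0 in a library allows up to 0.0949 to 0.166 CPM.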
